A study of Picea abies with 48 samples.

Results

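*PaCDKB2;2-like* (MA_920994g0010) is the gene of *Picea abies* (Norway spruce) with which the study followed cell division during graft healing. It was taken here by its identifier and is 1 of the 70736 gene models in the table of counts. The study's supplement annotates it as cyclin-dependent kinase B1-1 but gives *Arabidopsis* *CDKB2;2* as its homologue, and which class of B-type kinase it belongs to was not examined here. The study named the gene out of a group whose expression increased in these same libraries, so a rise after grafting is not independent of that choice, and the values below are of use for when, where and relative to what it moved. No position, length or sequence of the gene was used here, so its level is not compared with that of other genes.

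Cyclin-dependent kinases are enzymes that drive the steps of the cell cycle and need a cyclin partner to be active. B-type kinases are found in plants. In *Arabidopsis* their transcripts accumulate in dividing cells as these prepare for mitosis and pass through it, so such a transcript is widely read as a mark of cells late in the cycle. D-type cyclins act earlier, at the decision to start a cycle, and small inhibitor proteins of the SIAMESE-RELATED (SMR) family bind the kinases and hold the cycle back. A graft heals through new divisions at the cut surfaces, which fill the gap and later supply cells for the vascular connection.

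RNA was sequenced from hypocotyls of FP-96 Skogsgård seedlings, labelled wild type. Intact (ungrafted) plants were sampled on day 0 and, like grafted plants, on days 1, 3, 7, 14 and 28 after grafting (DAG). Grafted plants were divided into scion, about 1 mm of tissue above the junction, and rootstock, about 1 mm below it. Scion and rootstock were joined from different plants of this 1 seed source. Intact pieces were 2 mm long, every library pooled 5 plants, and each of the 16 groups had 3 libraries described as biologically independent. No group was cut and left without a graft, so cutting and grafting cannot be told apart.

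Libraries held 11511598 to 27687377 counted reads (median 18054427), and 210 to 1569 of these fell on the gene (33299 over all 48 libraries). At this depth counting error is small beside the larger differences described, though not beside the smallest. Levels are given as normalized reads, counts divided by DESeq2 size factors. The sources name no set of genes that defines hypocotyl, so that label could not be checked against markers. For the graft labels, the level of 4 wound and callus genes was summed (*PaWOX13-like*, *PaWIND1-like*, *PaERF115-like* and *PaPAT1-like*). The sum was 479.7 to 1080.2 normalized reads in the 30 grafted libraries and 56.6 to 182 in the 18 intact libraries. No library lay on the other side. The study reports these genes as raised after grafting in these same libraries. The separation is therefore not independent of that choice, and it is no independent check of the labels.

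The kinase gene was detected in every library, and its group means spanned 4.49-fold. Day 0 hypocotyls held 809, 951 and 902 normalized reads in replicates 1, 2 and 3 (887 ± 71.7, SD, n = 3). Intact plants of 1 DAG held 626, 639 and 555 (607 ± 45.6), and those of 3 DAG 826, 716 and 669 (737 ± 80.4). All 3 libraries of 1 DAG lay below every library of day 0, whereas the highest library of 3 DAG lay inside the range of day 0. Later intact libraries were lower still, with 479.6, 393 and 315 on day 7 (396 ± 82.2), 375, 279 and 359.9 on day 14 (338 ± 51.5), and 399, 313 and 338 on day 28 (350.0 ± 44.3). These 9 late intact libraries overlapped one another and all lay below the 9 of days 0 to 3.

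In scion the level at 1 DAG was 324, 355 and 305 normalized reads (328 ± 25.4). It stood at 1125, 1129.8 and 1118 at 3 DAG (1124 ± 5.82), at 935, 925 and 761 at 7 DAG (874 ± 97.5) and at 963, 959 and 1030.0 at 14 DAG (984 ± 39.9). By 28 DAG it was 494, 537 and 478 (503 ± 30.5). The 3 scion libraries of 1 DAG were thus below all intact libraries of days 0 to 3, and the 3 of 3 DAG above every intact library of any day.

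Rootstock followed the same course. It held 253, 242 and 256 normalized reads at 1 DAG (250.3 ± 7.53), the lowest group of all, and 1058, 1037 and 1215 at 3 DAG (1103 ± 97.5). The later values were 728, 816 and 847 on day 7 (797 ± 61.6), 1022, 858 and 993 on day 14 (958 ± 87.4), and 374, 487 and 459 on day 28 (440.1 ± 59.3). Of the 48 libraries, 11 lay above the day 0 range and all of these came from grafts at 3 to 14 DAG. In whole pieces of tissue, fewer cells with the transcript and less transcript per cell cannot be told apart.

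**Figure D1:**
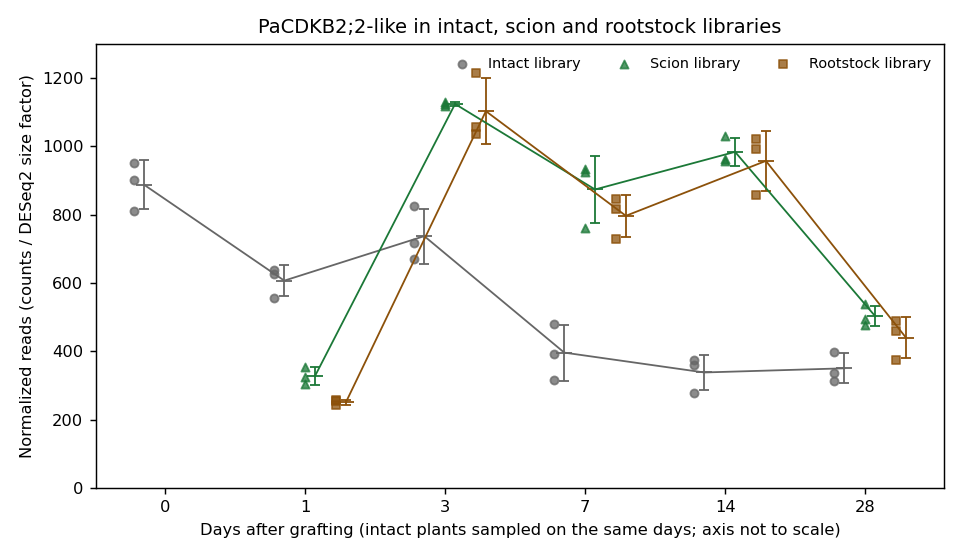
Normalized reads of *PaCDKB2;2-like* in the 48 libraries (points), with mean and SD of the 3 libraries of each group (dash and bar, drawn to the right), by day for intact plants, scion and rootstock. Grafted tissue lies below intact tissue at 1 DAG, above it from 3 to 14 DAG, and at 28 DAG above it in scion but overlapping it in rootstock, while intact tissue declines from 887 at day 0 to 338 at 14 DAG.

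In the order of the 16 means, scion and rootstock of 3 DAG came first, followed by scion and rootstock of 14 DAG, intact day 0, scion and rootstock of 7 DAG, intact 3 DAG, intact 1 DAG, scion and rootstock of 28 DAG, intact 7, 28 and 14 DAG, scion 1 DAG and rootstock 1 DAG. Of the 15 neighbouring pairs in this order, 11 had libraries that overlapped. The 4 steps without overlap lay between rootstock 3 DAG and scion 14 DAG, between intact 3 and 1 DAG, between intact 1 DAG and scion 28 DAG, and between scion and rootstock of 1 DAG. The coefficient of variation within groups was 0.517% to 20.8%, with a median of 8.46%, and was widest in intact plants of 7 DAG.

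The first question was how grafted tissue differed from intact tissue of the same day. At 1 DAG the gene was 1.88-fold lower in scion (log2 fold change −0.91, SE 0.12, edgeR quasi-likelihood test with Benjamini–Hochberg adjustment over 38436 genes, adjusted p = 1.65e-08) and 2.48-fold lower in rootstock (−1.31, SE 0.12, edgeR adjusted p = 1.73e-12). A gene counts as called here where the adjusted p is under 0.05 and the log2 fold change is above 1 or below −1. Rootstock was called, scion was not, and neither group overlapped the intact libraries. Of all genes tested, 22.7% were called in scion and 30.3% in rootstock on that day, so calls were common.

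At 3 DAG the sign had turned. The gene was 1.56-fold higher in scion (log2 fold change 0.64, SE 0.11, edgeR adjusted p = 1.01e-05) and 1.52-fold higher in rootstock (0.61, SE 0.11, edgeR adjusted p = 2.47e-05), which passed the test but were under the fold threshold. On that day 17.4% and 19.7% of genes were called. At 7 DAG it was called in both tissues, 2.27-fold higher in scion (1.18, SE 0.12, edgeR adjusted p = 7.31e-11) and 2.04-fold higher in rootstock (1.03, SE 0.12, edgeR adjusted p = 5.13e-09), beside 18% and 11.5% of all genes. The rootstock call lay at the threshold, with log2 fold changes of 0.89 without intact replicate 3 and 0.99 without rootstock replicate 3 of that day, and just under 1 with scaling by library size or after thinning to the smallest library.

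The difference was widest at 14 DAG, at 3.00-fold in scion (log2 fold change 1.58, SE 0.12, edgeR adjusted p = 3.86e-14) and 2.90-fold in rootstock (1.54, SE 0.12, edgeR adjusted p = 2.14e-13). On that day 18.5% and 14.1% of genes were called, and the gene ranked 2959 in scion and 2821 in rootstock among the 38436 genes by rise. At 28 DAG scion still exceeded intact plants 1.45-fold (0.54, SE 0.12, edgeR adjusted p = 0.000466) without overlap. Rootstock did so 1.26-fold (0.34, SE 0.12, edgeR adjusted p = 0.0327), with libraries that overlapped the intact ones and a test that was no longer passed when intact replicate 2 or 3, or rootstock replicate 2 or 3, was left out (0.26 to 0.31), beside 10.8% and 9.24% of genes called. Both tissues were compared with the same intact libraries, so the 2 sets of values are not independent of each other.

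Whether the difference itself moved between sampling days was tested as an interaction. From 1 to 3 DAG it rose by 1.55 on the log2 scale in scion (SE 0.16, edgeR adjusted p = 3.16e-09) and by 1.92 in rootstock (SE 0.17, edgeR adjusted p = 6.88e-12), where 6.67% and 12.2% of genes were called. From 14 to 28 DAG it fell by 1.05 in scion (SE 0.17, edgeR adjusted p = 2.41e-05, 6.09% of genes called) and by 1.20 in rootstock (SE 0.17, edgeR adjusted p = 6.74e-06, 4.03% of genes called). The scion value was under the fold threshold without intact replicate 2 of 14 DAG (−0.92) or intact replicate 1 of 28 DAG (−0.94). Sampling days in between gave smaller steps.

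From 3 to 7 DAG the step was 0.54 in scion (SE 0.17, edgeR adjusted p = 0.0200) and 0.43 in rootstock (SE 0.17, edgeR adjusted p = 0.0565). The scion step did not pass the test without intact replicate 1 of 3 DAG (0.44), intact replicate 3 of 7 DAG (0.40), or scion replicate 1 (0.43) or 2 (0.44) of 7 DAG. The rootstock step passed it without replicate 3 of intact (0.49) or rootstock (0.50) of 3 DAG, or replicate 1 of intact (0.59) or rootstock (0.48) of 7 DAG. From 7 to 14 DAG the steps were 0.40 (SE 0.17, edgeR adjusted p = 0.167) and 0.50 (SE 0.17, edgeR adjusted p = 0.0669). Without intact replicate 3 of 7 DAG both passed (0.54 and 0.64), and the rootstock step also passed without intact replicate 1 (0.58) or rootstock replicate 2 (0.58) of 14 DAG.

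**Figure D2:**
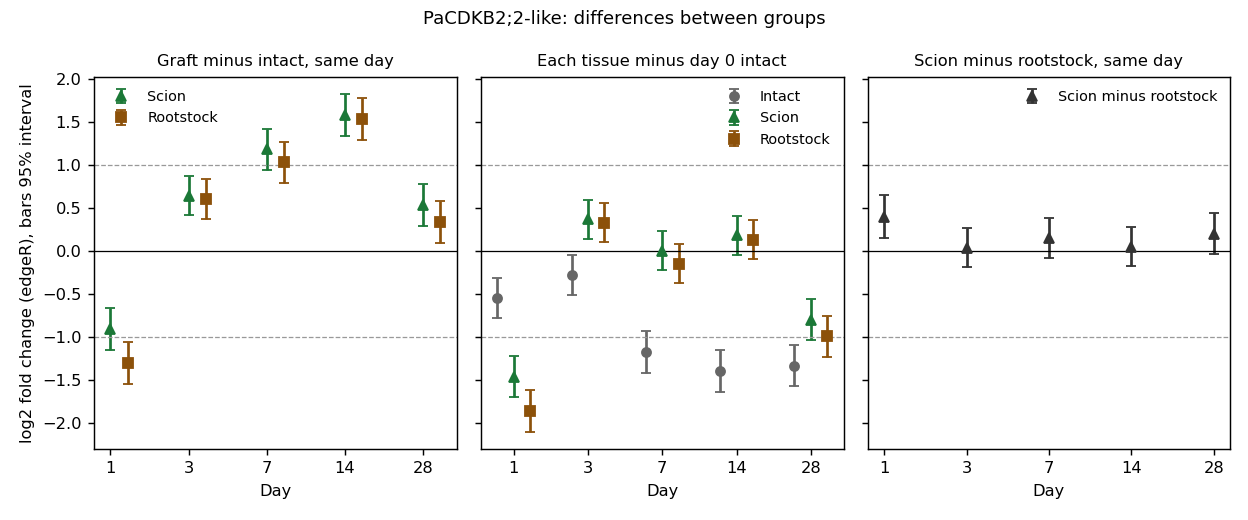
Log2 fold changes of *PaCDKB2;2-like* with 95% intervals from the edgeR fit, for grafted against intact tissue of the same day (left), each tissue against intact plants of day 0 (middle) and scion against rootstock (right); dashed lines mark −1 and 1. Grafted tissue reaches 1.58 and 1.54 above same-day intact tissue at 14 DAG, but only 0.18 and 0.13 above day 0.

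The intact reference itself declined, which the second comparison measured. Against day 0, intact plants were 1.47-fold lower at 1 DAG (log2 fold change −0.55, SE 0.12, edgeR adjusted p = 0.00651), beside 0.827% of genes that passed the test in that direction. The gene was not called, as 0.216% of genes were. Without intact replicate 2 of day 0 or intact replicate 3 of 1 DAG this comparison did not pass the test (−0.50 and −0.49). At 3 DAG the difference was −0.28 (SE 0.12, 95% interval −0.51 to −0.04, edgeR adjusted p = 0.12). It was called at 7 DAG (2.27-fold lower, −1.18, SE 0.12, edgeR adjusted p = 1.29e-10), 14 DAG (2.65-fold lower, −1.40, SE 0.12, edgeR adjusted p = 1.34e-12) and 28 DAG (2.52-fold lower, −1.34, SE 0.12, edgeR adjusted p = 2.10e-12), beside 14.9%, 15.8% and 17.9% of genes. Within intact plants the step from 3 to 7 DAG was the only one between neighbouring days from 1 DAG on that passed the test (−0.90, SE 0.12, edgeR adjusted p = 1.90e-07; −1.07, and so called, without intact replicate 1 of 7 DAG). With scaling by library size in place of TMM, the rise from 1 to 3 DAG passed as well (0.36, against 0.28 with TMM).

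Set against day 0, the grafts showed a loss, a return and a later decline. At 1 DAG the level was 37.0% of the day 0 mean in scion (log2 fold change −1.46, SE 0.12, edgeR adjusted p = 8.09e-14) and 28.2% in rootstock (−1.86, SE 0.12, edgeR adjusted p = 5.76e-17), both called beside 23.8% and 31% of genes. At 3 DAG it was 127% in scion (0.37, SE 0.11, edgeR adjusted p = 0.00629) and 124% in rootstock (0.33, SE 0.11, edgeR adjusted p = 0.0129). The rootstock value did not pass the test without intact replicate 1 of day 0 (0.27) or rootstock replicate 3 of 3 DAG (0.26).

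At 7 and 14 DAG neither tissue passed the test against day 0. The 95% intervals were −0.23 to 0.23 for scion and −0.38 to 0.08 for rootstock at 7 DAG (edgeR adjusted p = 0.992 and 0.302), and −0.05 to 0.41 and −0.10 to 0.36 at 14 DAG (edgeR adjusted p = 0.189 and 0.358). The 3 scion libraries of 14 DAG nonetheless lay above all 3 of day 0, and with scaling by library size both tissues passed on that day (0.47 and 0.30). At 28 DAG scion stood at 56.7% of day 0 (−0.80, SE 0.12, edgeR adjusted p = 2.01e-07) and rootstock at 49.6% (−0.997, SE 0.12, edgeR adjusted p = 2.10e-09, just short of a call, and called when intact replicate 1 of day 0 or rootstock replicate 2 or 3 of 28 DAG was left out, and with RLE scaling, DESeq2 or a fit of only the groups compared, at −1.01 to −1.08). The widest difference from same-day intact tissue, at 14 DAG, thus coincided with a graft level near that of day 0 and an intact level at 38.1% of it.

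Within scion and within rootstock, the move from 1 to 3 DAG was by far the largest between neighbouring days. Scion rose 3.56-fold (log2 fold change 1.83, SE 0.12, edgeR adjusted p = 1.27e-15) and rootstock 4.58-fold (2.19, SE 0.12, edgeR adjusted p = 2.61e-18), ranks 950 and 1000 among all genes by rise, beside 10.4% and 16.6% of genes called. Both then fell slightly to 7 DAG, scion by 0.37 (SE 0.11, edgeR adjusted p = 0.0184, not passed without scion replicate 3 of 7 DAG at −0.31) and rootstock by 0.48 (SE 0.11, edgeR adjusted p = 0.00146). From 7 to 14 DAG the values were 0.18 in scion and 0.28 in rootstock (SE 0.11 each, edgeR adjusted p = 0.349 and 0.0800), the latter passing without rootstock replicate 2 of 14 DAG (0.35) or with scaling by library size (0.38).

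From 14 to 28 DAG scion fell 1.97-fold (−0.98, SE 0.12, edgeR adjusted p = 2.93e-08) and rootstock 2.19-fold (−1.13, SE 0.12, edgeR adjusted p = 2.10e-09), while intact plants differed by 0.07 (SE 0.12, edgeR adjusted p = 0.844). Rootstock was called beside 6.9% of genes. Scion, just short of a call, was called without scion replicate 1 or 2 of 14 DAG or replicate 2 of 28 DAG (−1.02 to −1.06), with scaling by library size (−1.04) and, barely, without a filter on low counts, beside 6.72% of genes.

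The third question was whether the tissues above and below the junction differed. At 1 DAG scion was 1.32-fold higher than rootstock (log2 fold change 0.40, SE 0.12, 95% interval 0.15 to 0.65, edgeR adjusted p = 0.0126), with 305 to 355 against 242 to 256 normalized reads and no overlap. On that day 10.2% of genes were called, and this gene was not among them. Without scion replicate 2 or rootstock replicate 2 the comparison did not pass the test (0.33 and 0.37). On later days the differences were 0.04 (−0.19 to 0.26) at 3 DAG, 0.15 (−0.08 to 0.38) at 7 DAG, 0.05 (−0.18 to 0.28) at 14 DAG and 0.20 (−0.04 to 0.44) at 28 DAG, with edgeR adjusted p of 0.847, 0.354, 0.873 and 0.647 and overlapping libraries throughout. With scaling by library size, which moved the median of all scion differences from intact plants by 0.16 on that day, the difference at 7 DAG was 0.34 and passed the test. A scion excess above 0.44 on the log2 scale lies outside all 4 of these intervals. By replicate number, scion exceeded rootstock in 3 of 3 pairs at 28 DAG, and with the number as a block within days the difference was 0.20 (edgeR adjusted p = 0.38).

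Genes with other parts in cell division were taken as a list of 51, in 7 roles, from annotations in the study's tables of genes raised by hormone treatment in other libraries. The list is therefore not complete, and it is not a neutral sample of cell division genes. The study found auxin-induced genes enriched among those raised in scion and rootstock on all but the earliest sampling day after grafting. The counts and medians below are thus not independent of how the list was taken. The part of this choice in them was not tested. Of the 51 genes, 47 had enough reads to be tested. In scion 1 of these was called higher and 4 lower than intact tissue at 1 DAG (11.4% and 11.3% of all genes), 16 higher and 0 lower on day 3 (9.82% and 7.56%), 22 higher and 0 lower on day 7 (10.8% and 7.23%), 35 higher and 1 lower on day 14 (11% and 7.47%) and 2 higher and 1 lower on day 28 (7.86% and 2.95%). The median log2 fold change of the 47 was −0.27, 0.85, 0.98, 1.20 and 0.44 on these days, against −0.05 to 0.07 over all genes tested. By the test alone, without the fold threshold, 7 list genes were higher and 16 lower at 1 DAG (24.7% and 28% of all genes), 32 higher and 1 lower on day 3 (24.2% and 21.6%), 35 higher and 0 lower on day 7 (25.1% and 19.8%), 42 higher and 1 lower on day 14 (26% and 20%), and 20 higher and 1 lower on day 28 (18.1% and 12.6%).

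In rootstock 2 were called higher and 14 lower at 1 DAG (13.8% and 16.5% of all genes), 7 higher and 2 lower on day 3 (9.56% and 10.1%), 20 higher and 0 lower on day 7 (7.55% and 3.93%), 26 higher and 0 lower on day 14 (9.31% and 4.77%) and 3 higher and 1 lower on day 28 (7.27% and 1.96%). Medians were −0.61, 0.63, 0.97, 1.17 and 0.32, against −0.05 to 0.04 over all genes. The test alone gave 6 higher and 21 lower at 1 DAG (28% and 31% of all genes), 28 higher and 3 lower on day 3 (23.6% and 23.2%), 35 higher and 0 lower on day 7 (17.6% and 16%), 37 higher and 0 lower on day 14 (22.3% and 18.4%), and 12 higher and 1 lower on day 28 (15.2% and 9.98%). The count of list genes called higher was thus highest at 14 DAG in both tissues, the day on which the kinase gene stood furthest above intact tissue. Both are measured against intact tissue of that day, and no count against day 0 is given here for the list. By mean level in scion at 14 DAG, MA_16797g0020 stood above its day 0 mean (344 against 200) and MA_207601g0010 below it (59.3 against 104).

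**Figure D3:**
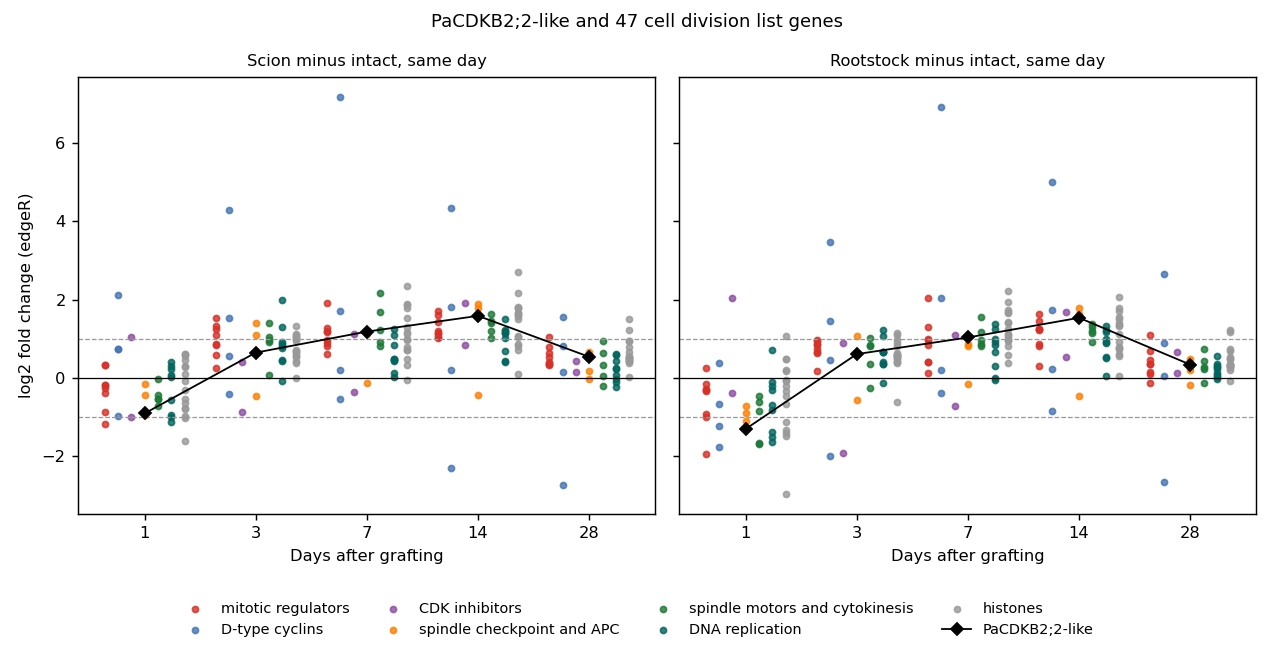
Log2 fold changes against intact tissue of the same day for the 47 tested list genes (points, coloured by role) and *PaCDKB2;2-like* (black line), in scion (left) and rootstock (right); dashed lines mark −1 and 1. The kinase gene runs inside the cloud of list genes on every day, from −0.91 and −1.31 at 1 DAG to 1.58 and 1.54 at 14 DAG.

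Among mitotic regulators, 8 of 8 were called higher in scion and 5 of 8 in rootstock at 14 DAG (11% and 9.31% of all genes). At 1 DAG 1 and 2 of the 8 were called lower, near the share of all genes (11.3% and 16.5%). A kinase annotated as cell division control 2 homolog C (MA_16797g0020) had mean normalized reads of 176 ± 26.5 (intact), 78.4 ± 17.6 (scion) and 46.6 ± 4.84 (rootstock) at 1 DAG, with log2 fold changes of −1.19 (SE 0.17, edgeR adjusted p = 1.1e-07) and −1.95 (SE 0.18, edgeR adjusted p = 2.1e-12). By 14 DAG the means were 117 ± 5.20, 344 ± 15.7 and 357 ± 17.7 (log2 fold changes 1.59 and 1.64). G2 mitotic cyclins, the partners that kinases bind on the way into mitosis, had values nearer to 0 at 1 DAG. MA_127335g0010 differed from intact tissue by −0.19 in scion (edgeR adjusted p = 0.23) and by −0.30 in rootstock (edgeR adjusted p = 0.049) on that day, and by 1.19 and 1.24 at 14 DAG. MA_10431608g0020 gave −0.27 (edgeR adjusted p = 0.06) and −0.32 (edgeR adjusted p = 0.021), then 1.01 and 0.87, and MA_10427881g0010 gave −0.38 (edgeR adjusted p = 0.1) and −1.01 (edgeR adjusted p = 6.4e-05), then 1.16 and 1.22.

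The spindle checkpoint protein MAD2, which delays the separation of chromosomes until all are attached, has 2 genes in the list. MA_19675g0010 fell at 1 DAG in scion (−0.44, SE 0.17, edgeR adjusted p = 0.022) and rootstock (−0.72, SE 0.17, edgeR adjusted p = 0.00032), and at 14 DAG its means were 51.04 ± 4.52 (intact), 184 ± 9.74 (scion) and 173 ± 16.6 (rootstock), log2 fold changes of 1.89 and 1.79. MA_11292g0010, with few reads, gave 1.78 and 1.63 at 14 DAG (edgeR adjusted p = 0.00069 and 0.0026). The list gene annotated as a cofactor of the anaphase-promoting complex (MA_10380053g0010) did not follow them, with −0.95 and −1.10 at 1 DAG (edgeR adjusted p = 0.00062 and 0.0001) and −0.43 and −0.46 at 14 DAG (edgeR adjusted p = 0.13 and 0.12).

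Of the 5 tested genes for spindle motors and cytokinesis, 5 were called higher in scion and 4 in rootstock at 14 DAG (11% and 9.31% of all genes). The syntaxin KNOLLE, which in *Arabidopsis* fuses vesicles into the new cell plate, parted the tissues at 1 DAG: MA_132768g0010 had 107 ± 9.03 normalized reads in intact tissue, 107 ± 12 in scion (−0.03, edgeR adjusted p = 0.91) and 33.9 ± 11.9 in rootstock (−1.67, SE 0.19, edgeR adjusted p = 4.3e-10). The 3 kinesins named here, motors that move along microtubules, were lower in both tissues on that day. MA_134706g0010 gave −0.55 and −1.69, MA_10432695g0010 −0.45 and −0.86, and MA_161721g0010 −0.55 and −0.47, with edgeR adjusted p of at most 0.044. At 14 DAG they gave 1.15 to 1.64.

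For DNA replication, 5 of 9 tested genes were called higher in scion and 3 of 9 in rootstock at 14 DAG (11% and 9.31% of all genes). At 1 DAG 1 and 3 of the 9 were called lower (11.3% and 16.5% of all genes), in scion no more than the share of all genes. The small chain of ribonucleotide reductase (MA_1482g0010), which makes the building blocks of DNA, fell from 466 ± 34.1 normalized reads in intact tissue to 245 ± 20.2 in scion and 153 ± 21.4 in rootstock at 1 DAG (−0.95 and −1.64, edgeR adjusted p = 2.2e-05 and 9.9e-10). At 14 DAG its log2 fold changes were 1.19 and 1.17. Thymidylate kinase (MA_18539g0010) fell by 1.12 and 1.52 at 1 DAG and was 0.41 and 0.50 above intact tissue at 14 DAG. A subunit of replication protein A (MA_10430633g0010), which coats single-stranded DNA, gave 0.23 and −0.10 at 1 DAG (edgeR adjusted p = 0.11 and 0.52) and 1.15 and 1.00 at 14 DAG.

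Histones, which package newly copied DNA, gave 12 of 16 tested genes called higher in scion and 9 of 16 in rootstock at 14 DAG (11% and 9.31% of all genes). At 1 DAG 1 of 16 was called lower in scion (11.3% of all genes), and 5 lower and 1 higher in rootstock (16.5% and 13.8%). An H2A gene (MA_10426943g0010) had 809 ± 89.3 normalized reads in intact tissue of 1 DAG, 884 ± 68.0 in scion (0.11, edgeR adjusted p = 0.38) and 599 ± 42.2 in rootstock (−0.46, SE 0.10, edgeR adjusted p = 0.00015). A second H2A gene (MA_11514g0010) gave 0.30 and 0.20 at 1 DAG, then 0.72 and 0.56 at 14 DAG, and an H2B gene (MA_10436516g0030) gave −0.08 and −0.04, then 1.66 and 1.35. Histone genes occur as near-identical copies. How reads shared by such copies were counted was not examined, so single values are uncertain.

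Of the 4 D-type cyclins 2 were called higher in each tissue and 1 lower in scion at 14 DAG. Of the 2 inhibitors 1 was called higher in each tissue. Of all genes, 11% in scion and 9.31% in rootstock were called higher, and 7.47% in scion were called lower. Cyclin D3-2 family gene MA_17738g0010 was higher in scion at 1 DAG (387 ± 64.3 against 229 ± 6.95 normalized reads, 0.73, SE 0.14, edgeR adjusted p = 4e-05) and lower in rootstock (148 ± 9.41, −0.66, SE 0.15, edgeR adjusted p = 0.0003), then 1.81 and 1.73 above intact tissue at 14 DAG. The cyclin D4 gene MA_103834g0010 rose in both tissues at 1 DAG (0.74 and 0.37, edgeR adjusted p = 5.1e-10 and 0.00022) and differed little at 14 DAG (0.21 and 0.22, edgeR adjusted p = 0.045 and 0.038). The cyclin D7 gene MA_10429174g0010 fell at 1 DAG (−0.97 and −1.23, edgeR adjusted p = 0.011 and 0.0015) and had few reads at 14 DAG, with means of 5.23 in intact tissue, 1.10 in scion (−2.29, edgeR adjusted p = 0.013) and 2.85 in rootstock (−0.85, edgeR adjusted p = 0.3).

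The inhibitor annotated as SMR4 (MA_207601g0010) was high at 1 DAG, when the kinase gene was low. It then had 132 ± 46.5 normalized reads in intact tissue, 278 ± 28.3 in scion (1.06, SE 0.23, edgeR adjusted p = 0.00015) and 558 ± 94.9 in rootstock (2.05, SE 0.23, edgeR adjusted p = 3.9e-10). At 14 DAG, with the kinase gene high, SMR4 had 16.5 ± 5.65 in intact tissue, 59.3 ± 4.54 in scion and 51.4 ± 15.8 in rootstock. It was above same-day intact tissue (1.92 and 1.69), as the kinase gene was. By level, however, both graft means were below those of 1 DAG and below its intact mean of day 0 (104 ± 14.0). SMR1 (MA_10433795g0010) gave −1.01 in scion (edgeR adjusted p = 0.0013) and −0.38 in rootstock (edgeR adjusted p = 0.2) at 1 DAG, and 0.84 and 0.54 at 14 DAG (edgeR adjusted p = 0.024 and 0.18).

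Likeness was measured as the Pearson correlation of log2(normalized reads + 1) over the 16 group means, a description in which all genes share the same libraries and scaling. Across 38435 other tested genes the median r with the kinase gene was −0.03, and 178 genes had r above 0.9. Genes of mitotic regulation had a median r of 0.78 (8 of 8 above 0.5), the spindle checkpoint and APC group 0.88 (2 of 3), spindle motors and cytokinesis 0.86 (5 of 5), DNA replication 0.83 (7 of 9) and histones 0.73 (11 of 16). D-type cyclins had 0.26 (1 of 4) and the inhibitors −0.12 (0 of 2). Of all genes compared, 2617 were above 0.5. The lowest r was −0.02 in the checkpoint group and −0.17 among histones.

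The 10 genes of most similar profile had r of 0.964 to 0.981, led by MA_10436275g0010, MA_10436254g0020 and MA_10433093g0020 and followed by MA_177265g0010, MA_6619g0010, MA_12899g0010, MA_211108g0010, MA_98310g0010, MA_10430327g0010 and MA_10427588g0020. None of the 10 has an annotation in the tables used here. Against intact tissue they differed by −1.03 to −0.43 in scion and by −1.71 to −0.66 in rootstock at 1 DAG, and by 0.93 to 1.78 and by 0.84 to 1.70 at 14 DAG. The 10 were chosen for their likeness over these same libraries, so the direction of these values follows from the choice. Their order is not firm, since 6 of the 10 were again among the first 10 when the 48 libraries were used one by one, and 5 with Spearman correlations. Among the first 100 (r of at least 0.923), 6 were list genes: the histone-like MA_1527811g0010 at rank 18, the kinesins MA_10432695g0010 and MA_161721g0010 at 52 and 69, the G2 mitotic cyclin MA_10427881g0010 at 58, MAD2 (MA_19675g0010) at 70 and the histone MA_197719g0010 at 88. Of genes outside the list, picked out after the ranks were seen, a protein annotated as binding the hairpin of histone transcripts (MA_15709g0010) stood at rank 14 and the transcription factor E2FE (MA_2814g0010), of the E2F family that controls cell cycle genes, at 53. Only 13 of the first 100 have an annotation in the tables used here, some of them only as unknown. Those tables do not cover all genes, so a gene without an annotation here is not thereby uncharacterized. The share of all tested genes with an annotation is not given here. Others outside the list were annotated as a SWI/SNF-related chromatin regulator (MA_111652g0010, rank 62), an armadillo repeat protein (MA_10432024g0010, rank 67) and a cytochrome P450 (MA_10433970g0010, rank 95).

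**Figure D4:**
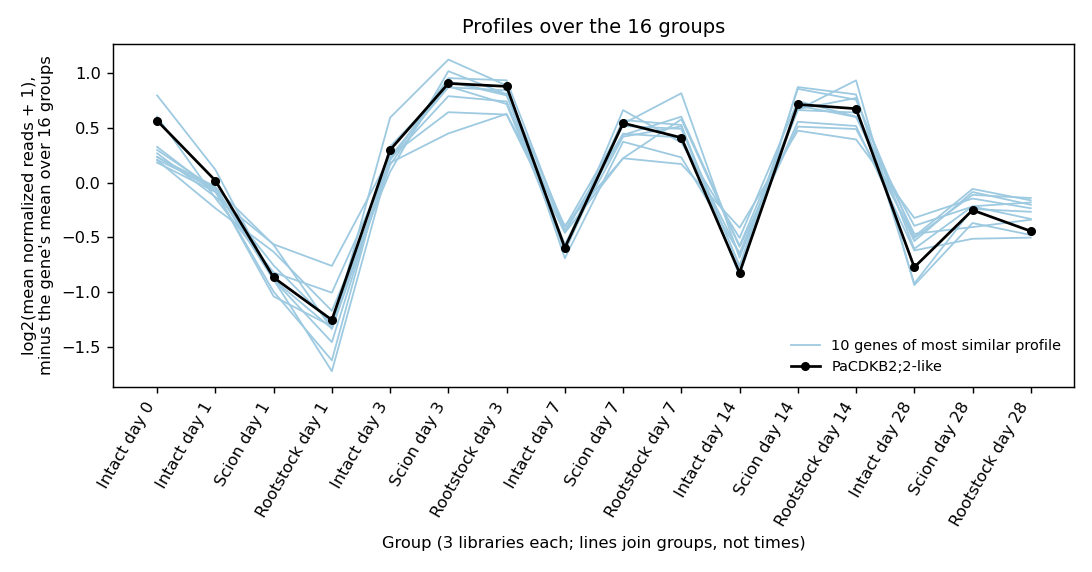
Log2(mean normalized reads + 1) over the 16 groups for *PaCDKB2;2-like* (black) and the 10 genes of most similar profile (blue), each with its own mean over the groups taken off. The lines dip at scion and rootstock of 1 DAG, peak in grafts of 3 DAG and stay higher in grafts than in intact plants at 7 and 14 DAG. The r is 0.964 to 0.981 over the 16 means, by which the 10 genes were chosen, so the shared course follows from the choice.

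Markers of other tissues moved in these libraries as well. The 2 xylem genes *PaVND4-like* and *PaPRX66-like* summed to 582 to 903 normalized reads in intact plants at 1 DAG, 174 to 246 in scion and 44.5 to 84.7 in rootstock, and at 3 DAG to 437 to 463, 1265 to 1579 and 52.7 to 93.7. On the latter day the kinase gene differed by 0.04 on the log2 scale between scion and rootstock. The phloem gene *PaAPL-like* had 117 to 157 normalized reads in scion and 32.5 to 58.9 in rootstock at 3 DAG, against 46.4 to 72.0 in intact plants. Neither the xylem nor the phloem genes were at 0 in any library.

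The wound and callus list, summed, stood above intact tissue when the kinase gene was lowest, with 704 to 1012 in scion and 653 to 902 in rootstock at 1 DAG against 72.2 to 92.6 in intact plants, and at 479.7 to 640.2 in grafts at 28 DAG. The largest member at 28 DAG was *PaERF115-like* (279.6 ± 24.5 in scion and 348 ± 47.3 in rootstock), and not every member was raised: *PaPAT1-like* in rootstock at 1 DAG had 54.4 ± 7.22 against 57.9 ± 3.63 in intact tissue, and *PaWIND1-like* in scion at 28 DAG 16.7 ± 7.43 against 16.5 ± 15.6. All 4 of its genes had values above 0 in every grafted library, and 6 of the 72 values in intact libraries were 0. The r of the kinase gene with the 7 markers over the 16 group means was 0.09 to 0.35, except for 0.72 with *PaPRX66-like*. The part of tissue composition in the level of the kinase gene was not tested.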

How the data were processed

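Hypocotyl RNA of intact and grafted *Picea abies* was measured in 48 libraries. The authors made stranded poly(A) libraries, used SortMeRNA against ribosomal reads, fastp for trimming and STAR for alignment to the v1.0 genome, and deposited raw counts per gene from HTSeq, whole numbers without scaling. Reads that near-identical genes share were not examined. The filter filterByExpr (minimum count of 10) of edgeR 4.0.16 in R 4.3.3 kept 38436 genes; 1 quasi-likelihood fit with TMM scaling held all 16 groups, and 50 comparisons were adjusted over all genes each. The SE was derived from the F statistic (size of the log2 fold change divided by √F) and can be too small at few reads. Levels are counts after division by size factors of DESeq2 1.42.0. The gene, the list and the markers were chosen with earlier results of these data known. Named genes are the kinase gene, the 10 most like it, the 3 most read genes of each role, list genes among the 100 most like, and the 7 markers. Between replicates, counts varied 2.96 to 14.1 times more than by counting alone. Alternatives were DESeq2, RLE or library size scaling, other filters, thinning to the smallest library, a replicate block, fits of only the groups compared, and each library left out, which kept the filter and the trended dispersion. Tests were tried on simulated data. Scion and rootstock libraries of the same number deviated together on 7, 14 and 28 DAG (3 of 3 pairs each with r above 0.1), which pairs them from the data; no label ties them. No batch is labelled.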

Additional observations from a re-analysis of the deposited data

Results flagged for a closer look

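A direct test of scion against rootstock separated the tissues for *PaCDKB2;2-like* at 1 DAG, where scion was higher by 0.40 on the log2 scale (SE 0.12, edgeR adjusted p = 0.0126, 3 of 3 scion libraries above all rootstock libraries). The difference from intact tissue also changed between neighbouring days by a test of the change itself. From 1 to 3 DAG it rose by 1.55 in scion and 1.92 in rootstock (edgeR adjusted p = 3.16e-09 and 6.88e-12). From 3 to 7 DAG it rose by 0.54 in scion (edgeR adjusted p = 0.0200). From 14 to 28 DAG it changed by −1.05 in scion and −1.20 in rootstock (edgeR adjusted p = 2.41e-05 and 6.74e-06). The scion step from 3 to 7 DAG and the difference between scion and rootstock at 1 DAG did not pass the test when certain single libraries were left out. No single sample was tested as an outlier, since groups held 3 libraries.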

How the results depend on the processing

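Under other settings 392 values of the 50 comparisons of *PaCDKB2;2-like* kept their side of the test, 9 newly passed it and 4 no longer did. None changed sign where either the main or the other fit passed the test. Signs could differ where neither passed. Scion against rootstock at 3 DAG, 0.04 in the main fit, reached −0.05 under another setting. Scaling by library size alone moved the median of all genes by 0.16 to 0.17 (log2) in scion against intact plants at 1 to 14 DAG. Under it scion and rootstock differed at 7 DAG (0.34), intact plants rose from 1 to 3 DAG (0.36), rootstock rose from 7 to 14 DAG (0.38), and scion and rootstock of 14 DAG exceeded day 0 (0.47 and 0.30); the fall in scion from 3 to 7 DAG was not passed (−0.32), and the rootstock interaction from 7 to 14 DAG was (0.59). At 28 DAG rootstock against intact plants was not passed without a filter (0.32) or in a fit of only the groups compared (0.31), nor was the scion interaction from 3 to 7 DAG in such a fit (0.50). DESeq2 passed the rootstock interactions from 3 to 7 (0.42) and 7 to 14 DAG (0.50), the strict filter the former (0.43). The cause of these shifts was not tested.

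Leaving out single libraries changed the side of the test for 10 comparisons: rootstock of 3 DAG against day 0 (0.26 to 0.43), intact 1 DAG against day 0 (−0.62 to −0.49), scion against rootstock at 1 DAG (0.33 to 0.45), rootstock against intact at 28 DAG (0.26 to 0.44), scion 7 against 3 DAG (−0.45 to −0.31), rootstock 14 against 7 DAG (0.22 to 0.35), and the interactions from 3 to 7 DAG (scion 0.40 to 0.70, rootstock 0.28 to 0.59) and from 7 to 14 DAG (scion 0.24 to 0.54, rootstock 0.34 to 0.64).

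With the replicate number as a block, scion against rootstock at 1 DAG was 0.40 and no call for the gene changed. Same-numbered scion and rootstock libraries had correlated deviations from their group means (r −0.14 to 0.40, 10 of 15 pairs above 0.1, 20 of 30 libraries best with their own number), all 3 pairs on each of 7, 14 and 28 DAG among them; 1 of 30 pairs with intact libraries was above 0.1. On 1 and 3 DAG, where not every pair was above 0.1, the libraries share only a number. A block within days, added after the data were seen, gave 0.40, 0.03, 0.10, 0.06 and 0.20 at 1, 3, 7, 14 and 28 DAG and changed no call between scion and rootstock. Of the list counts 154 stayed within 1.5 times and 26 did not, 10 of these by dropping the fold threshold; in scion at 1 DAG the 4 genes called lower became 1 under library size scaling and 7 after thinning, and at 3 DAG 16 called higher became 25 under library size scaling.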
